A study of Dorcoceras hygrometricum with 14 samples.

Results

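Leaf explants of Boea hygrometrica (also named Dorcoceras hygrometricum), a desiccation-tolerant plant of the Gesneriaceae, were compared after 10 and after 5 days of culture. No library was taken between day 0 and day 5, so the course of the first response to excision was not followed. RNA sequencing values of 3 libraries per day were used, YL-5d and YL-10d in the labels, and the 16118 of 24110 genes with at least 1 FPKM in at least 3 of these 6 libraries were tested. FPKM counts sequenced fragments per unit of transcript length and per size of the library. All explants were squares of 0.5 cm cut from young leaves of sterile plants aged 1 month, grown without added hormones from seed of wild plants. They lay with the lower leaf side on 1/2 MS medium that held 2,4-D (an auxin, 0.1 mg/L) and 6-BA (a cytokinin, 0.1 mg/L), so that both days carried both hormones and differed in the length of culture. The explants of days 0 and 15, also 3 libraries each, entered the statistical fit. The labels give 16 h of light, 8 h of dark and 25 °C for all of these libraries. Each replicate was RNA from a mix of about 30 leaf discs, so 1 library is a pool of pieces and of all their cell types. In such material, fewer cells of a type and less RNA per cell cannot be told apart.

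A cut leaf piece that meets auxin and cytokinin first goes through a wound response and loses part of its leaf program, and its cells may then re-enter division and form new organs. Auxin acts through auxin response factors, cytokinin through phosphotransfer proteins and response regulators, and shoot fate is set by homeobox factors of the WUSCHEL and KNOTTED families. B. hygrometrica is studied for its ability to survive drying, in which late embryogenesis abundant (LEA) proteins and dehydrins, small hydrophilic proteins that protect other proteins and membranes, take part.

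The tissue label was met by the leaf gene that encodes the small subunit of Rubisco, F511_34498, which read 22482, 24074 and 12525 FPKM on day 5 and 32446, 16147 and 10554 FPKM on day 10 in replicates 1, 2 and 3. FPKM totals of the 6 libraries ran from 886746 to 970083, and the 20 most abundant genes held 10.4% to 19.1% of them. FPKM carries no counts, which leaves depth and counting error unknown. Replicate 3 stood apart on both days. Its day 5 library correlated with the other day 5 libraries at r = 0.918 and r = 0.916 over the log2 values of all genes tested, and with the day 10 library of replicate 3 at r = 0.968. On day 10 replicate 3 correlated with replicate 1 at r = 0.886 and with replicate 2 at r = 0.915, while replicates 1 and 2 correlated at r = 0.938. These coefficients are across genes, which are not independent replicates. Results are therefore also given as the difference within each replicate, day 10 minus day 5, and the alternatives include fits without each of the 6 libraries.

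No gene passed the test between day 5 and day 10. With limma's moderated test on log2(FPKM + 1), 0 of 16118 genes (0%) were called at an adjusted p under 0.05 with a change of at least 2-fold, and the smallest adjusted p was 0.9996. At an unadjusted p under 0.05 there were 511 genes (3.17%), of which 225 (1.40%) were higher and 286 (1.77%) lower on day 10. In the same fit, day 5 against day 0 called 1112 genes (6.90%), 558 of them higher (3.46%) and 554 lower (3.44%). After median-ratio rescaling the split of that comparison was 351 higher and 681 lower, and its median over all genes was 0.0033 in place of 0.16. The filter used days 5 and 10 only, which can drop genes lost after day 0. With the filter over all 12 libraries the split was 541 higher and 601 lower of 17288 genes. Day 15 against day 10 called 0 genes, with 500 (3.10%) at an unadjusted p under 0.05. The fit held no term for the replicate, so differences shared by the libraries of a replicate stayed in its error. When the replicate was added as a block the count at an unadjusted p under 0.05 was 849 (5.27%), and again 0 genes were called. The smallest adjusted p in limma was then 0.92.

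A missing call does not show that a gene was level, so the width of the intervals was counted as well. For 10080 genes (62.5%) the whole 95% interval of day 10 against day 5 lay inside a 2-fold change in either direction. The median half-width of the intervals was 0.61 on the log2 scale, and 0.53 with the replicate as a block. Between day 0 and day 5 the interval lay inside 2-fold for 7598 genes (47.1%). The median log2 fold change of day 10 against day 5 was 0.0011, and the quartiles lay at -0.17 and 0.18. An estimated change of at least 2-fold was found for 347 genes (2.15%), against 2301 genes (14.3%) between day 0 and day 5.

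**Figure D1:**
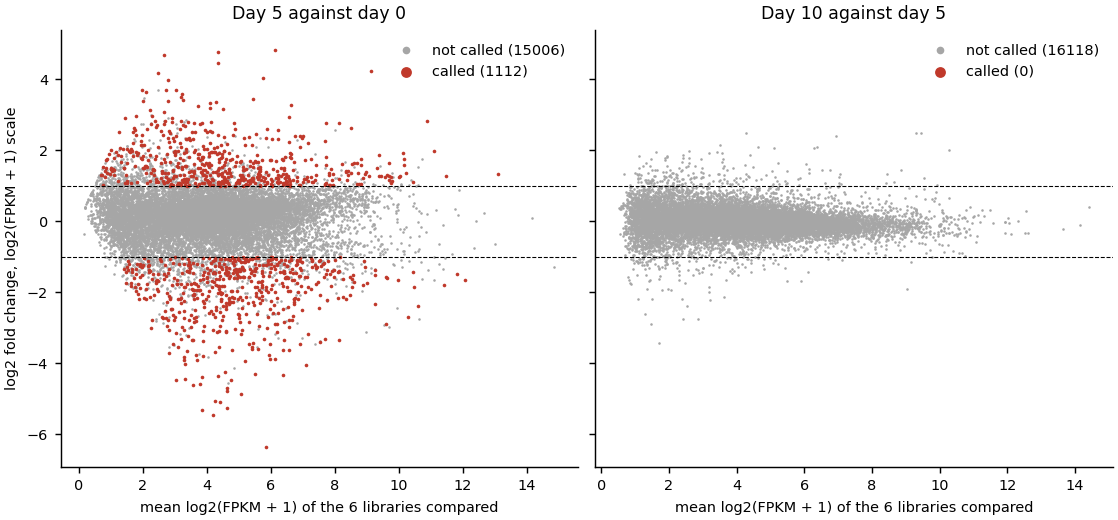
Log2 fold change of each of the 16118 genes on the log2(FPKM + 1) scale against its mean log2(FPKM + 1), for day 5 against day 0 (left) and day 10 against day 5 (right), with called genes in red and dashed lines at a 2-fold change. The left panel holds 1112 called genes and the right panel 0, and the cloud of the right panel is narrower.

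All 3 day 10 libraries lay above all 3 day 5 libraries for 493 genes (3.06%), and below them for 672 genes (4.17%). Within replicates, 2522 genes (15.6%) were higher on day 10 in all 3 pairs and 2303 (14.3%) were lower in all 3. The difference was at least 2-fold in each pair for 26 genes higher (0.161%) and 15 genes lower (0.0931%) on day 10. With 3 libraries a day, such patterns also arise by chance where a gene does not differ between the days. A lack of overlap, given below for single genes, therefore does not mark a gene as changed.

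Genes were also grouped into 49 lists by their descriptions. The median log2 fold change changed sign for 36 of them when at least 1 library was left out. The 13 that kept their sign under every alternative run were LEA proteins, heat shock proteins, early light-induced proteins, antioxidant enzymes, class III peroxidases, auxin response factors, organ boundary genes, cytosolic and chloroplast ribosomal proteins, ribosome biogenesis, the respiratory chain, starch and sugar genes, and cuticle genes. The direction of the other medians given here is therefore not firm. A kept sign does not make a direction firm either. By replicate, early light-induced proteins had medians of -1.33, 0.12 and 1.05, and class III peroxidases -0.01, 0.55 and -0.04.

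Photosynthesis genes were uneven between replicates. The list of photosystem and light-harvesting proteins, which capture light and pass its energy to the reaction centres, had 50 tested genes with 0 called. Of these 40 were higher on day 10, with a median log2 fold change of 0.15 against 0.0011 over all genes. The list median was 0.79 in replicate 1, -0.09 in replicate 2 and -0.21 in replicate 3. It was -0.17 without the day 10 library of replicate 1 and -0.03 without the day 5 library of replicate 3, so its sign rested on these libraries. The antenna gene F511_22923, a chlorophyll a/b-binding protein, read 171, 118 and 947 FPKM on day 5 and 5520.4, 809 and 766 FPKM on day 10. Among these 6 libraries replicate 1 of day 10 lay far above the others, replicates 1 and 2 of day 5 lay lowest, and replicate 3 was lower on day 10 than on day 5. On day 0 the gene read 1677, 923 and 5386 FPKM, with replicate 3 near that level. Its log2 fold change was 2.49 (95% interval 0.21 to 4.77). A second antenna gene, chlorophyll a-b binding protein 2 (F511_39467), had 459, 315 and 1598 FPKM on day 5 and 7402, 1756 and 1151 FPKM on day 10, with replicate 1 of day 10 again the highest of the 6 and a log2 fold change of 2.00 (95% interval -0.04 to 4.04). Of the 37 genes of the Calvin cycle and photorespiration 0 were called, 10 were higher and the median was -0.12, which turned to 0.08 without replicate 3 of day 10. GLO1-like (F511_01120), the glycolate oxidase of photorespiration, had 64.01, 53.8 and 58.3 FPKM on day 5 and 12.8, 57.4 and 55.5 FPKM on day 10. Replicate 1 of day 10 alone was low, and the log2 fold change was -0.74 (95% interval -1.83 to 0.36). Chlorophyllase-2 (F511_08895), an enzyme that removes the phytol tail of chlorophyll, had 315, 320.4 and 238 FPKM on day 5 and 171, 234 and 213 FPKM on day 10. All day 10 libraries lay below those of day 5, with a log2 fold change of -0.50 (95% interval -0.92 to -0.07).

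Most ribosomal protein genes had slightly lower values on day 10, by much less than 2-fold. Of 120 tested genes for cytosolic ribosomal proteins, which build the ribosomes that make most of the cell's protein, 0 were called and 13 were higher on day 10. Their median log2 fold change was -0.13, with -0.12, -0.17 and -0.11 in replicates 1, 2 and 3. It stayed between -0.17 and -0.076 when each library was left out in turn. The interval lay inside 2-fold for 94.2% of them, against 62.5% of all genes. The libraries of the 2 days did not overlap for 22 genes that were lower, against 4.17% of all genes, and for 1 that was higher, against 3.06%. The median day 5 level of this list was 286 FPKM, against 16.8 FPKM over all genes tested. The part of this level in these shares was not tested. Between day 0 and day 5 the median log2 fold change of this list was 0.67, where that of all genes was 0.16. In that comparison 5 of its 120 genes were called higher, against 3.46% of all genes, and nothing is read from that count. The large-subunit protein L31 (F511_07662) read 263, 275 and 275 FPKM on day 5 and 199.6, 202 and 241 FPKM on day 10. Its day 10 libraries all lay below its day 5 libraries, at a log2 fold change of -0.34 (95% interval -0.63 to -0.05). The small-subunit protein S9-2 (F511_25903) gave 302, 287 and 317 FPKM on day 5 and 232, 229 and 247 FPKM on day 10, again without overlap. L6-like (F511_10480), the member with the largest positive value of the list, had 76.7, 69.3 and 75.9 FPKM on day 5 and 118, 87.8 and 78.9 FPKM on day 10, so all day 10 libraries lay higher.

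Chloroplast ribosomal proteins had 39 tested genes, 0 called and 5 higher on day 10, with a median log2 fold change of -0.17 and medians of 0.03, -0.37 and -0.18 in replicates 1, 2 and 3. For the mitochondrial respiratory chain, which passes electrons to oxygen, 0 of 38 genes were called and 7 were higher on day 10. The median of that list was -0.19, with -0.36, -0.03 and -0.10 by replicate, and 8 members were lower without overlap, against 4.17% of all genes. Cytochrome c oxidase subunit 5C-2 (F511_17071), part of the last complex of the chain, read 379, 340.4 and 318 FPKM on day 5 and 223, 262 and 241 FPKM on day 10. Every day 10 value lay below every day 5 value, and the log2 fold change was -0.51 (95% interval -0.84 to -0.19). A beta-subcomplex subunit of NADH dehydrogenase (F511_00261), the entry complex, had 111, 107 and 99.2 FPKM on day 5 and 75.8, 87.7 and 85.4 FPKM on day 10, likewise without overlap.

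Ribosome biogenesis genes, which assemble ribosomes in the nucleolus, had a median of 0.05 over 59 tested, with 37 higher, 0 called and 6 higher without overlap, against 3.06% of all genes. Nucleolar essential protein (F511_34904) had 9.65, 5.91 and 9.65 FPKM on day 5 and 14.2, 11.5 and 15.7 FPKM on day 10, one of these. The gene's log2 fold change was 0.67 (95% interval -0.03 to 1.38).

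Genes of cell division had list medians near 0. Cyclins, mitosis and cytokinesis had 124 tested genes with 0 called, 77 higher on day 10 and a median of 0.08, and the median changed sign to -0.02 and -0.07 when replicate 1 of day 5 or replicate 3 of day 10 was left out. Cyclin D1 (F511_42630), which promotes entry into the cell cycle, had 6.24, 7.86 and 10.9 FPKM on day 5 and 13.8, 9.21 and 18.7 FPKM on day 10, and the groups overlapped. A cyclin-dependent kinase inhibitor (F511_40203), which the search for cyclins also took in and which restrains division, had 23.9, 30.6 and 21 FPKM on day 5 and 17.3, 17.7 and 18.1 FPKM on day 10. Here all day 10 libraries lay below day 5, with a log2 fold change of -0.47 (95% interval -0.98 to 0.04). DNA replication and core histones had 46 tested genes, 23 of them higher, with 0 called and a median of -0.00. The histone H2B-like gene F511_05240, which encodes a protein of the nucleosome core, read 4.04, 0.49 and 1.93 FPKM on day 5 and 9.07, 6.03 and 14.4 FPKM on day 10. The day 10 values all lay above day 5, and its day 15 libraries stood at 71.98, 96.7 and 21.7 FPKM.

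**Figure D2:**
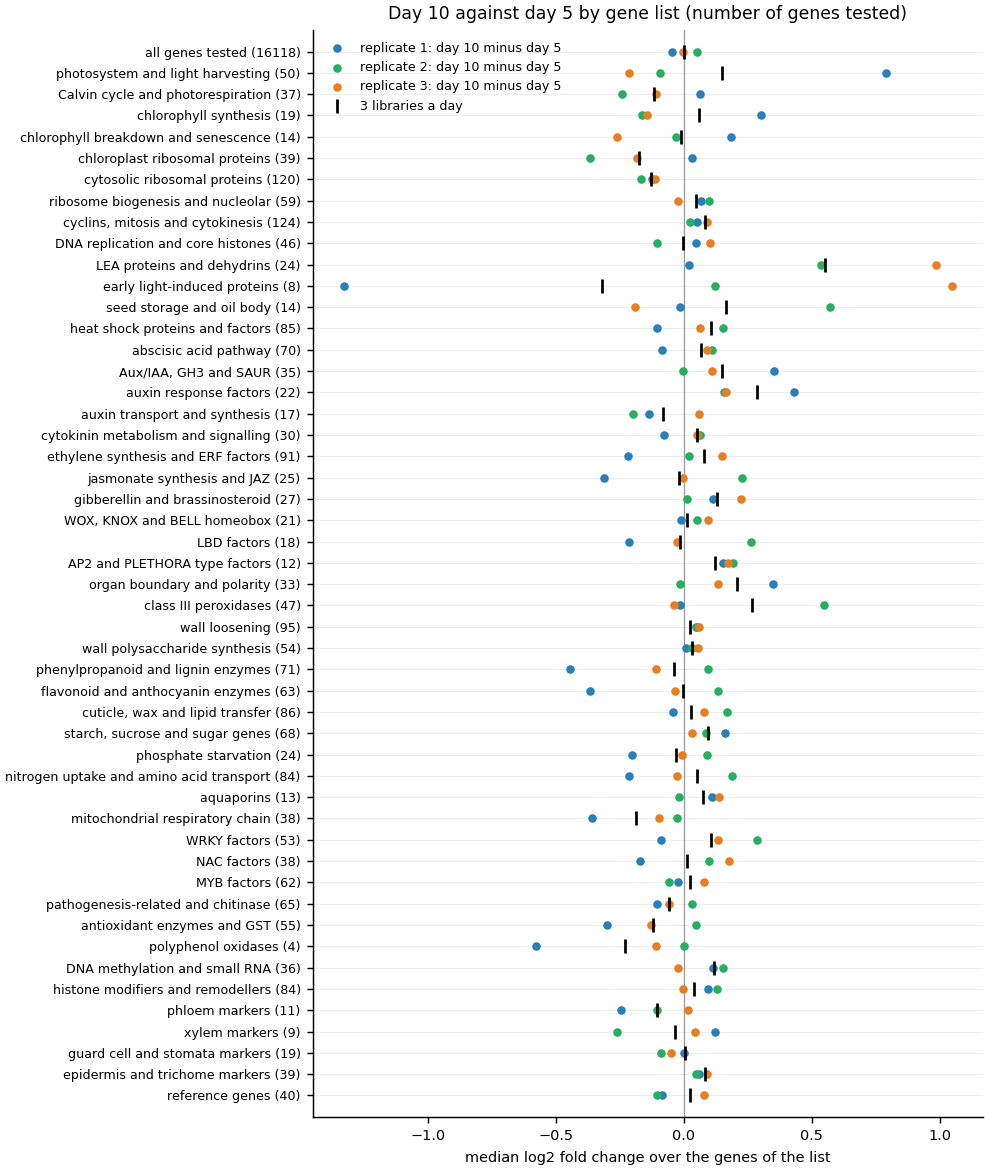
Median log2 fold change of day 10 against day 5 over the tested genes of each of 49 lists and over all genes tested, with 1 coloured point per replicate and a black bar for the 3 libraries a day. The bars run from -0.32 for early light-induced proteins to 0.55 for LEA proteins and dehydrins, and the replicates of both lists lie far apart.

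The LEA proteins and dehydrins had the largest positive median of the 49 lists. Of 24 tested genes 0 were called, 19 were higher on day 10 and 6 were higher without overlap between the days, against 3.06% of all genes. The median log2 fold change was 0.55, with 0.02 in replicate 1, 0.54 in replicate 2 and 0.98 in replicate 3. Without replicate 3 of day 5 it was 0.17. The interval lay inside 2-fold for 1 of the 24 genes, against 62.5% of all genes. The gene for the dehydrin Xero 1-like (F511_17762) was the member with the smallest unadjusted p (0.00356 in limma). It read 684, 494 and 469 FPKM on day 5 and 798, 1049 and 1256 FPKM on day 10, and the lowest day 10 library lay above the highest day 5 library. The log2 fold change was 0.91 (95% interval 0.37 to 1.45). On day 0 it had stood at 242, 184 and 230.1 FPKM and on day 15 at 1572, 1704 and 1097 FPKM.

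Embryonic protein DC-8-like (F511_23173), a LEA protein, had 10.2, 4.04 and 5.76 FPKM on day 5 and 15.8, 20.6 and 22.5 FPKM on day 10, with every day 10 library higher and a log2 fold change of 1.5 (95% interval 0.49 to 2.50). A second DC-8-like gene (F511_03760) had 38.1, 26.7 and 22.5 FPKM on day 5 and 50.2, 77.4 and 64.4 FPKM on day 10, also without overlap. For D-34-like (F511_19082), also a LEA protein, the values were 77.9, 58.7 and 106 FPKM on day 5 and 165, 118 and 141 FPKM on day 10, and the log2 fold change was 0.82. These genes were all higher on day 10 in each replicate. The member with the most negative value, Dc3 (F511_06088), had 68.01, 27.7 and 3.14 FPKM on day 5 and 0, 20.6 and 2.77 FPKM on day 10. It was listed at 0 in replicate 1 of day 10, the other replicates were closer between the days, and its interval from -4.95 to 0.51 was the widest of the list. LEA genes were lower in replicate 3 than in replicates 1 and 2 by a median of 0.57 on the log2 scale over the 2 days, where the median over all genes was 0.18 higher in replicate 3; the part of this in the list's values was not tested.

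**Figure D3:**
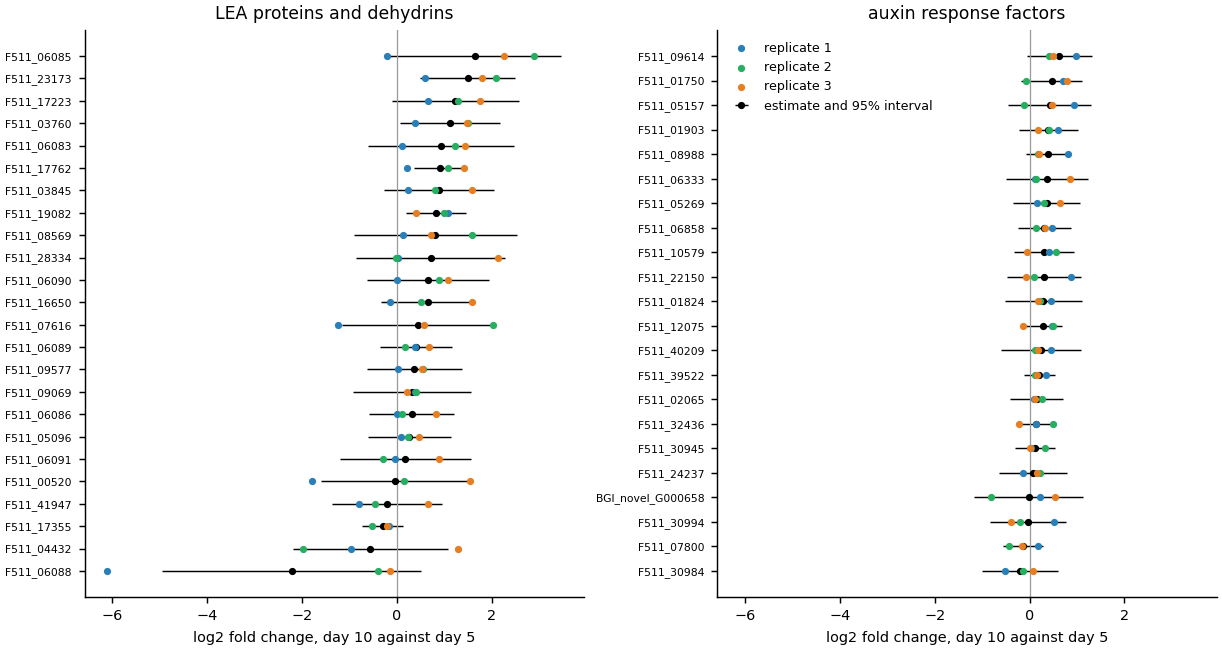
Log2 fold change of day 10 against day 5 for each of 24 LEA protein and dehydrin genes (left) and 22 auxin response factor genes (right), with the limma estimate and 95% interval in black and the difference within each replicate in colour. On the left 19 estimates and on the right 18 lie above 0, and most intervals include 0.

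Other stress genes were mixed. Heat shock proteins and factors had 85 tested, 0 called, 58 higher and a median of 0.11. Heat stress transcription factor A-2-like (F511_15603), which activates heat shock genes, had 28.98, 20.9 and 27.5 FPKM on day 5 and 49.6, 40.96 and 77.2 FPKM on day 10. All day 10 libraries lay above day 5, and the log2 fold change was 1.05 (95% interval -0.01 to 2.11). Early light-induced proteins, which protect chloroplasts from excess light, had 8 tested, 0 called, 4 higher and a median of -0.32, with -1.33, 0.12 and 1.05 by replicate. The member F511_41258 read 0.9, 1.16 and 0.47 FPKM on day 5 and 3.91, 2.83 and 2.01 FPKM on day 10, higher without overlap. Its day 5 values lay near the filter of 1 FPKM, which this gene passed through its day 10 libraries. That it stands among the higher genes follows in part from the filter. Antioxidant enzymes and glutathione transferases had 55 tested, 0 called, 16 higher and a median of -0.12. Cytosolic ascorbate peroxidase 1 (F511_36751), which removes hydrogen peroxide, had 1185, 1117 and 1055 FPKM on day 5 and 865, 896 and 869 FPKM on day 10. Its day 10 libraries all lay below day 5, at a log2 fold change of -0.35 (95% interval -0.75 to 0.05). A glutathione S-transferase-like gene (F511_03648) of the same list had 564, 611 and 510.1 FPKM on day 5 and 701, 795 and 624 FPKM on day 10, all higher.

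Among hormone genes, auxin response factors, which bind auxin-regulated promoters, mostly had slightly larger values on day 10. Of 22 tested genes 0 were called, 18 were higher on day 10, and the median was 0.29, with 0.43, 0.16 and 0.17 in replicates 1, 2 and 3. The interval lay inside 2-fold for 11 of them. An auxin response factor 2 family gene (F511_09614) had 21.2, 21.4 and 35.7 FPKM on day 5 and 43.1, 28.9 and 50.5 FPKM on day 10. Each replicate was higher on day 10, the groups overlapped because replicate 3 of day 5 lay above replicate 2 of day 10, and the log2 fold change was 0.63 (95% interval -0.05 to 1.31). Auxin response factor 9 (F511_08988) read 16.4, 15.7 and 20.4 FPKM and then 29.2, 17.8 and 23.7 FPKM. Auxin response factor 5 (F511_30984), the MONOPTEROS-type activator that acts in organ formation in Arabidopsis, had 31.8, 31.1 and 32.8 FPKM on day 5 and 21.8, 28.2 and 34.5 FPKM on day 10, with a log2 fold change of -0.20 (95% interval -1.0 to 0.61). The Arabidopsis enzyme TAR2 makes a precursor of auxin from tryptophan. Its homologue (F511_18081) had 17.3, 21.8 and 12.6 FPKM on day 5 and 7.46, 9.52 and 10.96 FPKM on day 10. All day 10 libraries lay below day 5, at a log2 fold change of -0.80 (95% interval -1.36 to -0.25).

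Auxin efflux carrier 7-like (F511_23545), which exports auxin from cells, had 32.8, 38.1 and 37.5 FPKM on day 5 and 60.7, 41.6 and 41.3 FPKM on day 10, all higher. Auxin transport and synthesis as a list had 17 tested, 8 higher, 0 called and a median of -0.08, and Aux/IAA, GH3 and SAUR genes, the early auxin response genes, had 35 tested, 20 higher, 0 called and a median of 0.15.

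Cytokinin metabolism and signalling had 30 tested genes, 0 called, 16 higher on day 10 and a median of 0.05. Adenylate isopentenyltransferase 3 (F511_03692), which catalyses the first step of cytokinin synthesis, read 182, 194 and 86.8 FPKM on day 5 and 80.2, 94.9 and 91.5 FPKM on day 10. Replicates 1 and 2 were lower on day 10, replicate 3 was not, and the log2 fold change was -0.70 (95% interval -1.48 to 0.07). The member with the smallest unadjusted p, APRR3 (F511_11458), is a pseudo-response regulator that belongs to the circadian clock in Arabidopsis and matched the list through its name alone. It had 4.53, 5.07 and 8.58 FPKM on day 5 and 22.8, 18.5 and 9.92 FPKM on day 10, without overlap and with a log2 fold change of 1.33 (95% interval 0.65 to 2.00). The time of day of harvest is not given in the sources used here.

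For abscisic acid, the hormone of drought, 0 of 70 genes were called and the median was 0.07. Protein phosphatase 2C 16-like (F511_26759), of the family that holds back abscisic acid signalling in Arabidopsis, had 16.01, 21.6 and 16.1 FPKM on day 5 and 27.7, 31.5 and 28.6 FPKM on day 10. Its lowest day 10 library lay above its highest day 5 library, and the log2 fold change was 0.69 (95% interval 0.30 to 1.09). The receptor PYL9-like (F511_03137) had 320.0, 330.3 and 333 FPKM on day 5 and 201, 269 and 292 FPKM on day 10, all lower on day 10. Gibberellin 20-oxidase (F511_08477), which makes the precursors of active gibberellin, read 4.73, 2.37 and 2.91 FPKM on day 5 and 23.9, 11.96 and 7.72 FPKM on day 10. Each day 10 library exceeded each day 5 library and the log2 fold change was 1.74 (95% interval 0.72 to 2.75). A receptor of the same hormone, GID1B-like (F511_03492), had 87.5, 121 and 83.6 FPKM on day 5 and 69.5, 56.8 and 78.4 FPKM on day 10, all lower. Allene oxide cyclase 4 (F511_08434), an enzyme of jasmonate synthesis, had 268, 302 and 169 FPKM on day 5 and 105, 175 and 139 FPKM on day 10. Each replicate was lower on day 10, and the days overlapped in 1 library each, with a log2 fold change of -0.80 (95% interval -1.42 to -0.19). Over the jasmonate list of 25 genes 12 were higher on day 10, 0 were called and the median was -0.02.

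Factors of organ formation had list medians from -0.01 to 0.21. LBD factors had 18 tested genes with 9 higher, 0 called and a median of -0.01, and AP2 and PLETHORA type factors, which act in meristems and roots, had 12 tested with 8 higher, 0 called and a median of 0.12. WOX, KNOX and BELL homeobox genes had 21 tested, 0 called, 11 higher and a median of 0.01; 1 of them is a CYSTM family protein taken in by its name. The STM1 protein gene (F511_13273), of the SHOOT MERISTEMLESS type that maintains the shoot meristem in Arabidopsis, had 32.5, 30.4 and 19.04 FPKM on day 5 and 6.03, 20.2 and 20.3 FPKM on day 10. Replicates 1 and 2 were lower on day 10 and replicate 3 was slightly higher, and the log2 fold change was -0.91 (95% interval -2.09 to 0.27). Organ boundary and polarity genes had 33 tested, 0 called, 22 higher and a median of 0.21, with 0.35, -0.02 and 0.13 by replicate. Growth-regulating factor 1-like (F511_01919), a promoter of leaf growth, had 1.8, 1.74 and 1.81 FPKM on day 5 and 4.01, 3.83 and 4.69 FPKM on day 10, without overlap and with a log2 fold change of 0.89 (95% interval 0.15 to 1.63). REVOLUTA (F511_40365), which sets the upper side of leaves, had 16.6, 15.2 and 12.6 FPKM on day 5 and 10.6, 12.6 and 12.4 FPKM on day 10, and the groups overlapped by a small margin. The list member with the smallest unadjusted p (F511_45035) is a TCP-1/cpn60 chaperonin, which helps proteins fold and is no organ polarity factor. It had 9.99, 10.6 and 9.39 FPKM on day 5 and 17.1, 17.1 and 14.8 FPKM on day 10.

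The single gene with the smallest unadjusted p among those higher without overlap, at 2-fold or more, with a named protein and a mean of at least 5 FPKM on day 10, encodes an enzyme of primary metabolism. The gene for 6-phosphofructokinase 2-like (F511_11587), an enzyme of glycolysis, had 13.99, 9.12 and 7.82 FPKM on day 5 and 37.96, 46.1 and 34.4 FPKM on day 10. Its 3 day 10 libraries lay at more than 2-fold the values of their day 5 partners, and the log2 fold change was 1.87 (95% interval 1.02 to 2.72), with an unadjusted p of 0.000546 in limma. Its day 15 libraries read 54.95, 132 and 79.7 FPKM. NADH nitrate reductase (F511_10494), which reduces nitrate to nitrite, had 0.74, 1.37 and 5.78 FPKM on day 5 and 5.24, 15.4 and 15.2 FPKM on day 10. Replicate 1 of day 10 lay just below replicate 3 of day 5, so the groups overlapped, but each replicate was more than 2-fold higher on day 10. Its log2 fold change was 1.97 (95% interval 0.81 to 3.12).

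Uroporphyrinogen-III C-methyltransferase-like (F511_04567) encodes the enzyme that starts the synthesis of sirohaem, the cofactor of nitrite reductase. It read 83.9, 64.03 and 111 FPKM on day 5 and 215, 279.7 and 157 FPKM on day 10, with all day 10 libraries above day 5 and a log2 fold change of 1.32 (95% interval 0.62 to 2.02). LOB domain-containing protein 37-like (F511_31890) is of the type that represses nitrate-response genes in Arabidopsis. It had 31.6, 25.5 and 62.9 FPKM on day 5 and 164, 117 and 77.7 FPKM on day 10, with no overlap, the smallest difference in replicate 3 and a log2 fold change of 1.60 (95% interval 0.69 to 2.51). Over the whole list of nitrogen uptake and amino acid transport, 0 of 84 genes were called, 48 were higher and the median was 0.05. Vacuolar amino acid transporter 1 (F511_01742), which moves amino acids across the vacuole membrane, had 20.5, 22.8 and 21.4 FPKM on day 5 and 7.57, 14.5 and 18.1 FPKM on day 10, all lower on day 10.

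Starch, sucrose and sugar genes had 68 tested, 0 called, 43 higher, a median of 0.10 and 8 members higher without overlap, against 3.06% of all genes. Sucrose transporter 4 (F511_16025) had 105, 74.5 and 102 FPKM on day 5 and 106, 184 and 162 FPKM on day 10, all higher on day 10 and with a log2 fold change of 0.66 (95% interval 0.07 to 1.25). A trehalose-phosphate synthase gene (F511_33346), for an enzyme that makes a sugar signal, had 34.8, 36.2 and 39.97 FPKM on day 5 and 41.4, 48.9 and 53.7 FPKM on day 10, all higher. The sugar transporter SWEET2-like (F511_01857) had 87.5, 80.98 and 70.4 FPKM on day 5 and 55.1, 62.8 and 65.1 FPKM on day 10, all lower. CTP synthase 1-like (F511_07905), which makes a building block of RNA and membranes, had 3.8, 3.33 and 12.7 FPKM on day 5 and 28.7, 14.03 and 19.9 FPKM on day 10 without overlap. Germin-like protein 2-1 (F511_08778), of a family of wall-bound proteins, had 4.13, 4.51 and 9.32 FPKM on day 5 and 17.8, 20.9 and 26.6 FPKM on day 10, and day 15 libraries read 87.9, 113 and 23.2 FPKM.

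Of genes lower without overlap, those with the smallest unadjusted p had varied roles. RING-H2 finger protein ATL80-like (F511_29191), of a family of ubiquitin ligases, had 8.34, 9.8 and 3.12 FPKM on day 5. On day 10 it was listed at 0 in replicates 1 and 2 and at 0.04 FPKM in replicate 3. Trichome birefringence-like 23 (F511_09008), of a family that acetylates wall polysaccharides, had 2.7, 5.44 and 8.6 FPKM on day 5 and was listed at 0 in all 3 day 10 libraries. Both genes passed the filter of 1 FPKM in 3 libraries through their day 5 libraries alone, so that their place among the lower genes follows in part from the filter. Without counts, a listed 0 may also be a failed estimate, and no fold is given for these genes. The proteinase inhibitor gene F511_34768, described as like an inhibitor of trypsin and hageman factor, had 96.9, 53.4 and 96.1 FPKM on day 5 and 25.3, 44.1 and 12.4 FPKM on day 10. All day 10 values lay below day 5, at a log2 fold change of -1.67 (95% interval -2.54 to -0.81).

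Thioredoxin H-type (F511_28243), a small disulfide reductase, had 58.3, 55.8 and 38.8 FPKM on day 5 and 14.5, 33.2 and 25.4 FPKM on day 10 without overlap. Subunit gamma 2 of the heterotrimeric G protein (F511_31441), a membrane-bound signalling complex, had 42.1, 33.4 and 29.3 FPKM on day 5 and 12.4, 16.5 and 21.02 FPKM on day 10, also without overlap. The ethylene-responsive factor ERF114-like (F511_24774), of a type linked to wounding and shoot branching in Arabidopsis, had 10.9, 16.6 and 9.56 FPKM on day 5 and 5.44, 5.09 and 1.81 FPKM on day 10, and day 0 libraries read 0.6, 0.2 and 0 FPKM. Its log2 fold change from day 5 to day 10 was -1.44 (95% interval -2.38 to -0.50). The precursor of the peptide hormone phytosulfokine (F511_44228, phytosulfokines 3) had 10.8, 10.2 and 16.8 FPKM on day 5 and 1.75, 5.18 and 0 FPKM on day 10, all lower on day 10 and listed at 0 in replicate 3.

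GEM-like protein 5 (F511_29334), of the GRAM domain family, had 10.7, 12.1 and 13.4 FPKM on day 5 and 16.3, 35.3 and 49.9 FPKM on day 10, without overlap. An R2R3-MYB transcription factor (F511_13789) had 1.44, 1.06 and 1.2 FPKM on day 5 and 2.53, 4.27 and 3.66 FPKM on day 10, also without overlap. Peroxidase 64 (F511_44923), of the wall peroxidases, had 0.68, 1.93 and 2 FPKM on day 5 and 5.17, 3.34 and 2.96 FPKM on day 10. Every day 10 value of it also lay higher. Over that list of 47 peroxidases 34 were higher, 0 were called, and the median was 0.27, with -0.01, 0.55 and -0.04 by replicate. The lists not described in the text, from wall and phenylpropanoid enzymes to WRKY and NAC factors, DNA methylation and reference genes, also had 0 called, with medians from -0.23 for the 4 polyphenol oxidases to 0.17 for 14 seed storage and oil body genes.

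**Figure D4:**
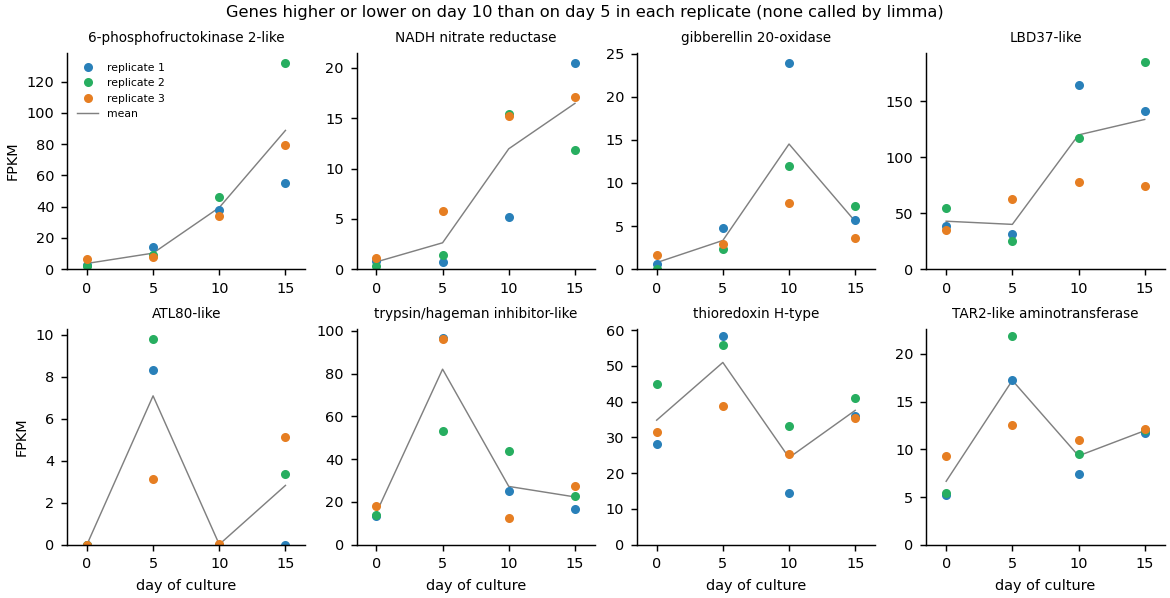
FPKM of 8 genes in each library on days 0, 5, 10 and 15 of culture, with 1 coloured point per replicate and the mean as a grey line, on a linear axis from 0. For 7 of the 8 genes, the 3 day 10 points lie all above or all below the 3 day 5 points, and for NADH nitrate reductase 1 point of each day overlaps.

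Markers of other cell types had medians from -0.11 to 0.08. Phloem markers had 11 tested genes with 2 higher and a median of -0.11, xylem markers 9 with 4 higher and -0.03, guard cell and stomata markers 19 with 10 higher and 0.00, and epidermis and trichome markers 39 with 23 higher and 0.08. None of these was called. The epidermis and trichome list, matched on the word trichome, also holds trichome birefringence-like 23 (F511_09008), of a family of wall enzymes. Its count and median are thus not those of epidermis markers alone. Protodermal factor 1-like (F511_00282), a marker of the epidermis, had 3.96, 9.45 and 92.2 FPKM on day 5 and 58.7, 31.5 and 181 FPKM on day 10. Replicate 3 was highest on both days, and each replicate was higher on day 10, with a log2 fold change of 2.06 (95% interval 0.02 to 4.11). MERISTEM L1-like (F511_20573), a homeobox factor of the outermost cell layer, had 2.65, 4.74 and 13.7 FPKM on day 5 and 9.23, 7.38 and 18.5 FPKM on day 10, also higher within each replicate. The means of these genes were 146 and 14.5 FPKM on day 0 and 35.2 and 7.04 FPKM on day 5. They do not stand for the epidermis and trichome list. Its median turned to -0.03 without replicate 1 of day 5 and to -0.01 without replicate 3 of day 10. EPIDERMAL PATTERNING FACTOR-like 4 (F511_00278), a secreted peptide of the family that spaces stomata, had 20.9, 18.5 and 13.6 FPKM on day 5 and 0, 12.8 and 6.02 FPKM on day 10. The related factor 2-like gene (BGI_novel_G001052) had 10.6, 16.4 and 16.3 FPKM on day 5 and 0, 16.8 and 14.2 FPKM on day 10. Both were listed at 0 in replicate 1 of day 10, which was also the library with the high antenna genes, and the second was near its day 5 level in the other replicates. The part of that library in these values was not tested. Of the 19 guard cell and stomata markers 10 were higher on day 10, so these EPIDERMAL PATTERNING FACTOR genes do not stand for that list. IRX9H-like xylosyltransferase (F511_01301), which builds the xylan of secondary walls, had 37.8, 42.4 and 40.6 FPKM on day 5 and 28.6, 34.2 and 28.4 FPKM on day 10, all lower. The APL-like MYB gene F511_36890 of the phloem list had 8.73, 8.44 and 9.78 FPKM on day 5 and 3.82, 7.8 and 3.26 FPKM on day 10, all lower on day 10 and with a log2 fold change of -0.82 (95% interval -1.42 to -0.22).

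Among genes called between day 0 and day 5, 446 of 1112 (40.1%) had an interval for day 10 against day 5 inside 2-fold, a smaller share than the 62.5% of all genes. Both comparisons share the day 5 libraries, and nothing is read from the difference between these shares. The 6 described next were chosen for the narrowest intervals and do not stand for the others. The 3 with the narrowest intervals encode a translation initiation factor, a transcription factor and an RNA-binding protein. The eIF5-like gene (F511_13345), a factor of translation initiation, rose from 38.4, 35.9 and 45.2 FPKM on day 0 to 84.5, 81.3 and 87.5 FPKM on day 5, and read 85.4, 75.1 and 78.98 FPKM on day 10. Its log2 fold change was 1.07 over the first interval (limma, adjusted p = 0.0018) and -0.08 (95% interval -0.36 to 0.19) over the second. ATHB-6-like (F511_19643), a homeobox factor that responds to abscisic acid in Arabidopsis, rose from 64.01, 78.3 and 77.9 FPKM to 173, 193 and 157 FPKM and then stood at 160.2, 143 and 165 FPKM. La-related protein 6A (F511_01839), which binds RNA, gave a second log2 fold change of -0.04 (95% interval -0.36 to 0.28). The small-subunit ribosomal protein S25 (F511_40959) was at 313 ± 6.27 FPKM on day 0, 648 ± 68.3 FPKM on day 5 and 578 ± 55.98 FPKM on day 10 (mean ± SD, n = 3). Cytochrome P450 89A2-like (F511_23195) fell by day 5, with 268, 331 and 382 FPKM on day 0, 139, 156 and 149 FPKM on day 5 and 141, 147 and 150.5 FPKM on day 10, and its second log2 fold change was -0.02 (95% interval -0.36 to 0.32). The chloroplast protease SPPA (F511_02863) also fell by day 5, from 45.6, 47.2 and 40.95 FPKM to 21.2, 22.2 and 19.8 FPKM, and had 20.5, 20.7 and 18.1 FPKM on day 10.

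The change from day 5 to day 10 minus the change from day 0 to day 5 was tested as a contrast of its own. It is a signed difference, so it does not separate a change that slowed from one that turned back. Of 16118 genes 17 (0.105%) were called in limma, 16 with a lower and 1 with a higher second change, and the smallest adjusted p was 0.0037. This split was not stable, with 15 higher and 37 lower with the replicate as a block, 33 and 42 without replicate 3 of day 5, and 334 and 334 on replicates 1 and 2. At an unadjusted p under 0.05 there were 2547 of the 16118 genes. With the replicate as a block 52 genes were called in all, after median-ratio rescaling 3, and with no filter on low values or without the trend and robust variances 1. The day 5 libraries enter both changes, with opposite sign. Without replicate 1 or replicate 2 of day 5 it called 1 gene, without replicate 3 of day 5 it called 75, and without replicates 1, 2 and 3 of day 10 it called 3, 10 and 48. The same contrast against the change from day 10 to day 15 called 0 genes in limma, with 289 (1.79%) at an unadjusted p under 0.05.

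Ribonuclease T2 (F511_39535), an RNA-degrading enzyme, had 4.12, 3.54 and 1.54 FPKM on day 0, 136, 79.4 and 105 FPKM on day 5 and 61.6, 51.8 and 69.9 FPKM on day 10. It rose by 4.76 on the log2 scale to day 5 and then differed by -0.77, a difference between the changes of -5.53 (limma, adjusted p = 0.0037). BURP domain-containing protein 16-like (F511_18275), of a plant-specific family of secreted proteins, rose from 116, 156 and 112 FPKM to 2633, 2946 and 1821 FPKM. On day 10 it read 943, 2337 and 853 FPKM, with replicate 2 within the day 5 range and the others below it. LATERAL ORGAN BOUNDARIES-like (F511_25101), a transcription factor of organ boundaries, rose from 3.98, 3.79 and 5.76 FPKM to 45.3, 64.3 and 53.4 FPKM and had 28.4, 41.6 and 58.97 FPKM on day 10, where replicate 3 lay within the day 5 range. HVA22-like protein a (F511_25902), of a family induced by stress and abscisic acid in barley, and Phosphate transporter 1,4 (F511_20836), which takes up phosphate, also had a lower second change. The peptide hormone precursor RALF-like 24 (F511_26936) and squamosa promoter-binding-like protein 16-like (F511_25476), a transcription factor, were also among the 16, with second changes of -0.34 and -0.46. The HVA22-like gene was listed at 0, 0 and 1.21 FPKM on day 0 and read 15.8, 23.7 and 30.9 FPKM on day 5 and 15.9, 15.9 and 18.97 FPKM on day 10. For the phosphate transporter gene the first change was 2.39 and the second -0.50. The 1 gene with a higher second change was zeaxanthin epoxidase (F511_11649), an enzyme of the xanthophyll cycle and of abscisic acid synthesis. It fell from 253, 236 and 204 FPKM on day 0 to 61.95, 53.9 and 81.5 FPKM on day 5, a log2 fold change of -1.81, and read 139, 112 and 85.2 FPKM on day 10. All its day 10 libraries lay above day 5, at a log2 fold change of 0.75 (95% interval 0.30 to 1.20).

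**Figure D5:**
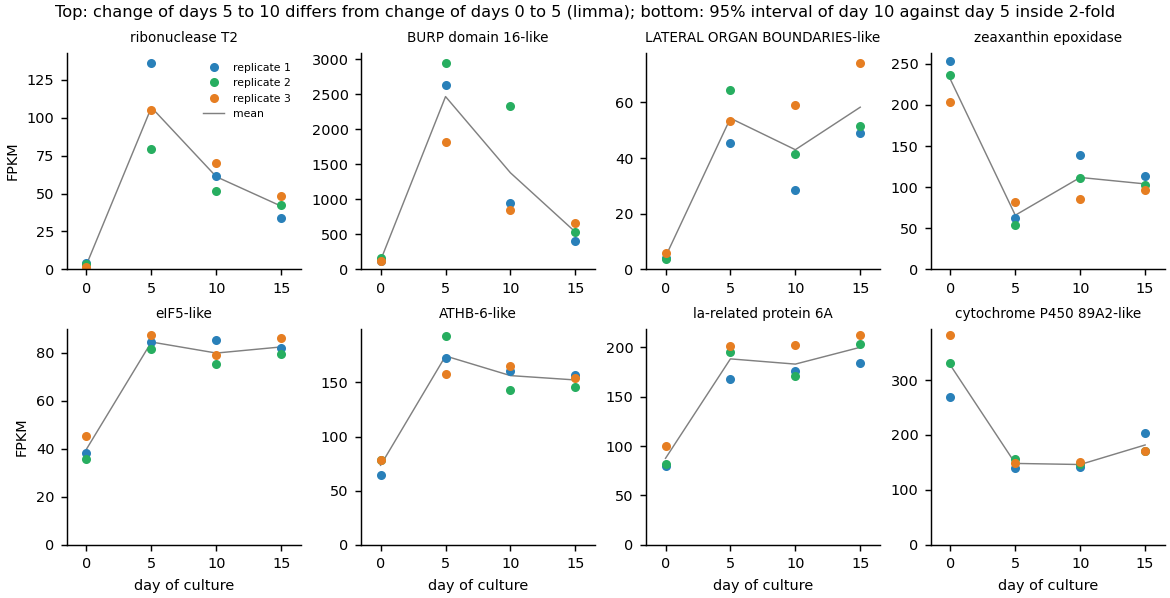
FPKM in each library on days 0, 5, 10 and 15 of culture, with 1 coloured point per replicate and the mean as a grey line, on a linear axis from 0. In the top row are 4 of the 17 genes whose second change differed from the first, and in the bottom row 4 genes whose interval for day 10 against day 5 lay inside 2-fold.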

How the data were processed

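Per the labels, RNA came from 3 biological replicates per day of leaf explants. Per the file headers, the authors deposited FPKM values per gene with homology descriptions. HISAT, Bowtie2 2.2.5, BSMAP and StringTie 1.0.4 are listed, per the submitters' processing notes, with no roles. The genome build is not given in the sources used here. FPKM is relative within a library, so a few abundant genes can lower all others. The methylation samples were not used here.

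Values were log2(FPKM + 1), a pseudocount of 1, fitted in limma 3.58.1 (R 4.3.3, statmod 1.5.0) over all 12 RNA libraries with 1 mean per day, eBayes with trend and robust. The test was two-sided with Benjamini-Hochberg adjustment over 16118 genes, of which 12136 have a named protein, 7698 of them from the product field and 4438 from the best protein hit. A call needed an adjusted p under 0.05 and a log2 fold change of at least 1 in size. The scripts were tested on simulated data.

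The replicate letters of the labels were taken to pair the libraries. Deviations of same-numbered libraries from their day's mean correlated across genes at r = 0.29, 0.17 and 0.67 for replicates 1, 2 and 3. All 3 lay above 0.1. Replicate 1 of day 5 with replicate 2 of day 10 gave 0.30. Replicate 2 of day 5 with replicate 1 of day 10 gave 0.39, so replicate 3 alone was most like its own number on both days. Deviations of 3 libraries from their mean sum to 0, so the match of replicate 3 raises the values among replicates 1 and 2. These values therefore cannot show that replicates 1 and 2 pair, and their differences within a replicate rest on the letters alone. The labels name no shared culture or batch. The 49 gene lists are text patterns on the descriptions and hold some members that do other things. Genes named are a part of those a rule took: the smallest p among genes with a 2-fold change and no overlap, the smallest p in each list and direction, and the narrowest intervals among genes changed by day 5. The Rubisco gene, 2 further LEA genes, F511_04561 and the genes with unequal changes were chosen after their values were seen. The members and lists were chosen with earlier results of these data known. Alternatives were other samples, filters, pseudocount, scaling, variance model, the replicate block, replicates 1 and 2 only, and leaving out each library.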

Additional observations from a re-analysis of the deposited data

Results flagged for a closer look

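The count of 17 genes whose change from day 5 to day 10 differed from their change from day 0 to day 5 is listed because the difference itself passed limma's test. It had 16 genes with a lower second change and 1, zeaxanthin epoxidase, with a higher one. The split was 15 higher and 37 lower with the replicate as a block, 33 and 42 without replicate 3 of day 5, and 334 and 334 on replicates 1 and 2, so no direction is drawn from it.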

How the results depend on the processing

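Day 10 against day 5 called 0 genes as reported and under every alternative except replicates 1 and 2 only, which called 1 gene, lower. That gene (F511_04561, described as a myosin heavy chain kinase B) had 29.6, 31.3 and 4.29 FPKM on day 5 and 2.56, 2.87 and 7.01 FPKM on day 10, and replicate 3 went the other way (limma, adjusted p = 0.0321 on replicates 1 and 2). The count at an unadjusted p under 0.05, 511 as reported, was 849 and 975 with the replicate block over 12 and 6 libraries, 1365 on replicates 1 and 2, and 290 to 1134 when each library was left out. It was lowest without replicate 1 of day 5 (290), then without replicate 2 of day 5 (299), and highest without replicate 3 of day 5. Genes with an interval inside 2-fold numbered 8441 to 9114 with 1 library left out. The block changed no call of day 10 against day 5. For the 17 genes with unequal changes the count was 52 with the block, 1 with no filter on low values, 3 after median-ratio rescaling, 1 without trend and robust variances, 668 on replicates 1 and 2, and 1 to 75 with 1 library left out; the cause was not tested. Day 5 against day 0 called 1968 genes on replicates 1 and 2 and 416 to 1192 with 1 library of day 5 or 10 left out, lowest without replicate 2 (416) and replicate 1 (440) of day 5. The alternatives of these neighbouring comparisons were chosen after seeing the data. Day 15 against day 10 called 9 genes on replicates 1 and 2.

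Of 1200 values of named genes under 15 alternatives 8 changed sign, in 4 genes. With 1 library left out, F511_34498 ran from -0.54 to 0.27, F511_23195 from -0.062 to 0.022, F511_01839 from -0.12 to 0.0099 and BGI_novel_G001052 from -1.96 to 0.12. F511_34498 was positive without replicate 1 (0.026) and replicate 2 (0.076) of day 5 and without replicate 3 of day 10. F511_23195 was positive without replicate 2 of day 5 and, at 0.0074, without replicate 1 of day 10. F511_01839 was positive without replicate 3 of day 5 and, at 0.0075, without replicate 2 of day 10, and BGI_novel_G001052 was positive without replicate 1 of day 10. Of 735 values of list medians 644 moved by less than the spread between the 3 replicates. FPKM gives no depth, so low values carry an unknown counting error.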
